A study of Rattus norvegicus with 12 samples.

Results

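The genes described here encode protein kinase A (PKA) and the proteins that hold it in check or in place: the catalytic subunits Prkaca and Prkacb, the type I regulatory subunits Prkar1a and Prkar1b, the type II regulatory subunits Prkar2a and Prkar2b, the inhibitors Pkia and Pkig, and the anchor Akap12. They were chosen by name: 9 of the 33212 gene names on the array, read by all probes that are not control spots and carry one of these symbols, which are 21 of 41012 probes, on 30 spots. PC12 cells, a line from a rat adrenal pheochromocytoma, received PACAP38 at 1e-07 M for 5, 10, 15, 30, 60 or 120 min, and the control cells of the same time points are labelled only as control. RNA of each group (n = 6) was pooled, and each pair of pools, treated and control, went onto 2 arrays with 2 colours, once with PACAP38 in Cy5 and once in Cy3. Since the pools were the same on both, a time point counts as 1 replicate: the folds of both arrays are printed as its error, and single time points carry no test. The model is 1 cell line, and in pooled RNA a change within cells and a change in the mix of cells cannot be told apart.

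Inactive PKA is a complex of a regulatory dimer with a pair of catalytic subunits. The receptors of PACAP act through Gs and adenylyl cyclase to raise cyclic AMP, which binds the regulatory subunits and frees the catalytic ones to phosphorylate their targets, the transcription factor CREB among them. Type I holoenzyme is largely soluble, type II is mostly held at membranes and the cytoskeleton by A-kinase anchoring proteins (AKAPs), and the heat-stable inhibitors encoded by the Pki genes bind free catalytic subunits and carry them out of the nucleus. The arrays measured the RNA of these proteins, not the activity of the kinase.

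By a rule of at least 2-fold either way with a spot p-value under 0.01 on both arrays, 0 of the 21 member probes were called at any time. Of all probes this rule called 0% at 5 min and 3.48% at 120 min, so a count of 0 is not a result about the members. At 120 min the 3 probes of the type I regulatory subunits stood at 1.94-fold, 1.51-fold (both Prkar1a) and 1.69-fold (Prkar1b) as the geometric mean of both arrays. Of these, only Prkar1a A_44_P301695 met the same rule at 1.5-fold, which called 3.03% of all probes higher at 120 min. One of the 2 bright enough probes of Prkar2a, A_44_P748551, met it too, at 1.83-fold, while the other stood at 1.02-fold. With another background correction (normexp with an offset of 50, then loess) the values at 120 min were 1.14-fold for Prkar1b, 1.22-fold for this Prkar2a probe, and 1.73-fold and 1.42-fold for the Prkar1a probes A_44_P301695 and A_44_P399992. Median centring in place of loess gave 1.08, 1.12, 1.49 and 1.24 in the same order. The catalytic subunits, Prkar2b and the inhibitors stayed between 0.838-fold and 1.23-fold at 120 min, and Akap12 was not well above background on any array. The mean folds of both arrays at 5 to 30 min lay between 0.767-fold and 1.19-fold at all member probes with both RNAs well above background. One probe of Prkar1a rose with time past the threshold of the test, and this call was lost under several alternatives given below.

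Probes of 60 bases read each gene, and the sequences of those on which the results for the type I subunits and Prkaca turn, with the Prkar2a probe that lies on the curated transcript, are printed in lower case as the scanner files give them, with no part marked. Each has at least 1 forward frame without a stop codon.
Prkar1a A_44_P399992: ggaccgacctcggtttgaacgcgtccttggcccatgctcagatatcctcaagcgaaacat
Prkar1a A_44_P301695: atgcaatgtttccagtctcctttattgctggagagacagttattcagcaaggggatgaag
Prkar1b A_44_P170755: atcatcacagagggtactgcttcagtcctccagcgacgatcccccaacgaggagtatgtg
Prkaca A_44_P330332: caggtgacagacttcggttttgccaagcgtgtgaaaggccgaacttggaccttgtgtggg
Prkar2a A_44_P493802: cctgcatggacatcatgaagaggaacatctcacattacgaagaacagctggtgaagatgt
In the annotation of the array (rat build rn4) the Prkar1a probes lie at chrX:148642430-148642489 and chrX:148643028-148643087, 598 bases apart on the minus strand. The Prkar1b probe spans chr12:16104438-16128455 on the plus strand, 24018 bases for a 60-base probe, and so crosses introns. The Prkaca probe spans chr19:25847261-25847403 on the minus strand. RefSeq places Prkar1a on chromosome 10 and lists a pseudogene of it, Prkar1a-ps1, on chromosome X, so RNA of the gene and of such a copy cannot be told apart at these probes. The 3 probes of Prkar2a lie in 1 line on chr8 of rn4: the printed one at chr8:113805153-113805212, A_44_P748551 1352 bases and A_44_P803822 3446 bases downstream of it. The latter 2 are annotated to a predicted transcript, and A_44_P803822 holds the letters of a polyadenylation signal, AATAAA.

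Of the 21 member probes, 14 from 8 genes were well above background in the control RNA on all 12 arrays, and so were they in the RNA with PACAP38. The other 7 are the dim ones: both Akap12 probes and 2 of the 5 Prkacb probes (A_44_P402956 and A_44_P158777) were well above background on 0 arrays, and no fold is given for these 4. The control signals of the Akap12 probes ran from 5.45 to 13.6 at A_44_P183784 and from 3.87 to 8.05 at A_44_P198535, in processed units. Akap12 encodes gravin, a scaffold that binds PKA and protein kinase C at the membrane. Prkacb A_44_P745191 was well above background on 6 arrays in the control RNA and 8 with PACAP38, Prkacb A_44_P118833 on 3 and 5, and Prkar2a A_44_P493802 on 4 and 3. These 3 were bright enough on some arrays only, and their 2 arrays mostly went opposite ways: at 120 min Prkacb A_44_P745191 stood at 0.416-fold on one array and 2.17-fold on the other, and Prkar2a A_44_P493802 at 2.28-fold and 0.690-fold.

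The basal level of a probe was taken in the control RNA as the log2 of its signal over the 75th percentile of that channel, averaged over both arrays of a time point. Over the 6 control pools the level of Prkar1a was 5.89 ± 0.13 (SD) at A_44_P399992 and 2.67 ± 0.14 at A_44_P301695, and these SDs were 0.25 and 0.32 with no scaling. That of Prkar1b was -1.25 ± 0.22, that of Prkaca -0.81 ± 0.24 and that of the brightest Prkacb probe 3.45 ± 0.19, the SDs of the last pair being 0.16 and 0.30 with no scaling. Prkar2a had 6.17 ± 0.20 at its brightest probe and -0.47 ± 0.36 at A_44_P748551. Prkar2b had 3.20 ± 0.064 at its brightest probe, or an SD of 0.29 with no scaling, and Pkig 0.73 ± 0.10, or 0.26 with no scaling. The brightest Pkia probe had 3.61 ± 0.074, or 0.29 with no scaling. These levels serve to compare pools at 1 probe, and since probes differ in how they bind, the level of one probe says nothing about that of another. All of these genes were thus read from cells without PACAP38, with Akap12 as the exception.

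Prkar1a encodes the RIα subunit, the type I subunit found in most tissues. At A_44_P301695 the folds from 5 to 120 min, in order of time, were 0.868, 0.937, 1.11, 1.03, 1.14 and 1.89 with PACAP38 in Cy5. With PACAP38 in Cy3 they were 0.943, 0.974, 1.07, 1.05, 1.24 and 1.99. The 2 arrays of this probe never lay on opposite sides of 1. In signal, control and PACAP38 stood at 2224 and 4209 on the first array at 120 min, and at 1945 and 3872 on the second. The level with PACAP38 was 3.60 at 120 min, above all 6 control pools, which ranged from 2.52 to 2.88.

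The other Prkar1a probe, A_44_P399992, is the brightest of the gene and at 120 min stood above 1 too, by less. Its folds at 120 min were 1.46 and 1.57, with spot p-values of 0.00911 and 0.00221 from the scanner software, and its folds at 60 min were 1.12 and 1.32. Its level with PACAP38 at 120 min was 6.44, again above all 6 control pools (5.69 to 6.01). At 5 to 30 min its mean fold lay between 1.01 and 1.11. Taken as the mean of both probes, Prkar1a stood at 1.71-fold at 120 min, 1.66-fold and 1.77-fold on the 2 arrays.

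Prkar1b encodes RIβ, the type I subunit known mainly from the nervous system. On the array with PACAP38 in Cy5 its folds were 1.08, 0.968, 1.04, 1.58, 1.05 and 2.22 from 5 to 120 min, and on the other array 0.835, 0.607, 0.695, 0.894, 1.09 and 1.29. The 2 arrays lay on the same side of 1 at 10, 60 and 120 min, but in opposite directions at 5, 15 and 30 min. The spot p-value at 120 min was 7.76e-06 on the first array and 0.116 on the second. The level with PACAP38 at 120 min, -0.79, was above all 6 control pools, yet the control pool of 120 min was itself the lowest of the 6, at -1.56 against up to -0.92. The mean fold of 1.69 at 120 min therefore sets the highest of the 6 levels with PACAP38 against the lowest control level.

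**Figure D1:**
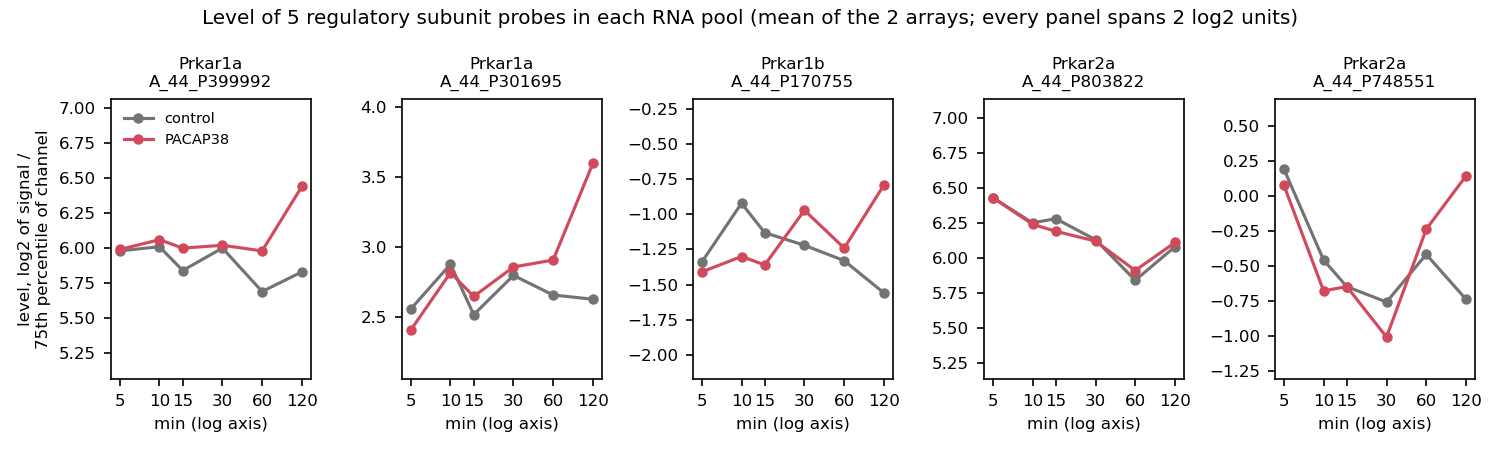
Level of 5 regulatory subunit probes in control RNA (grey) and RNA with PACAP38 (red) against time on a log axis, as log2 of the signal over the 75th percentile of the channel, each point the mean of the 2 arrays. At 120 min both Prkar1a probes and Prkar1b lie above every control point of their panel, at 6.44, 3.60 and -0.79, whereas the 2 lines of Prkar2a A_44_P803822 run together.

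Prkar2a encodes RIIα, the widely expressed subunit of the anchored holoenzyme. Its 2 bright probes differed. At A_44_P748551 the folds at 120 min were 1.83 and 1.82, with spot p-values of 6.05e-04 and 1.51e-04, and at 60 min 1.15 and 1.11. At A_44_P803822, 2094 bases further along the chromosome, the folds at 120 min were 0.890 and 1.16 and its mean fold stayed between 0.934 and 1.05 at all 6 times. The signals of A_44_P748551 were the lower ones, with a median of 171 over the 12 control channels against 16134 at A_44_P803822. The level of A_44_P748551 with PACAP38 at 120 min, 0.14, was above 5 of the 6 control pools, the control of 5 min standing at 0.19. The mean of both probes was 1.36-fold at 120 min.

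Prkar2b encodes RIIβ, the type II subunit of brain, fat and endocrine cells. At its brightest probe, A_44_P316122, the folds at 120 min were 0.804 and 0.873, with spot p-values of 0.127 and 0.340, and the level with PACAP38, 2.93, lay below all 6 control pools (3.14 to 3.32). At 5 to 60 min its mean fold lay between 0.973 and 1.06. The other Prkar2b probe, A_44_P116634, gave 1.02-fold and 1.03-fold at 120 min, and its mean fold was lowest at 5 min, 0.966, and highest at 60 min, with 1.06 and 1.13 on the 2 arrays. The lower value at 120 min was thus seen at 1 of the 2 probes.

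Prkaca encodes Cα, the main catalytic subunit of most cells, and its probe lies on 10 spots. The mean fold went from 0.822 at 5 min to 1.23 at 120 min. The 2 arrays disagreed at 120 min, at 1.55 and 0.976, and also at 10 min, at 1.26 and 0.658, and at 30 min, at 1.20 and 0.952. Its level with PACAP38 at 120 min, -0.79, was above 2 of the 6 control pools only. Prkacb encodes Cβ. At its brightest probe, A_44_P880354, the array with PACAP38 in Cy5 was above 1 at all 6 times, between 1.03 and 1.42, and the other array was below 1 at all 6 times, between 0.681 and 0.885. The mean fold of both arrays, in which a dye effect of equal size on both cancels, lay between 0.871 and 1.02.

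With the processed signals both inhibitors stayed close to 1. Pkia encodes PKIα, and its 4 probes, all bright on all arrays, gave mean folds between 0.903 and 1.17 over the 6 times and between 0.930 and 1.03 at 120 min. Pkig encodes PKIγ, and its probe gave mean folds between 0.972 and 1.18, the highest at 120 min with 1.35 on one array and 1.03 on the other. Its level with PACAP38 at 120 min was 0.91, and the highest of its 6 control pools was 0.91 too.

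**Figure D2:**
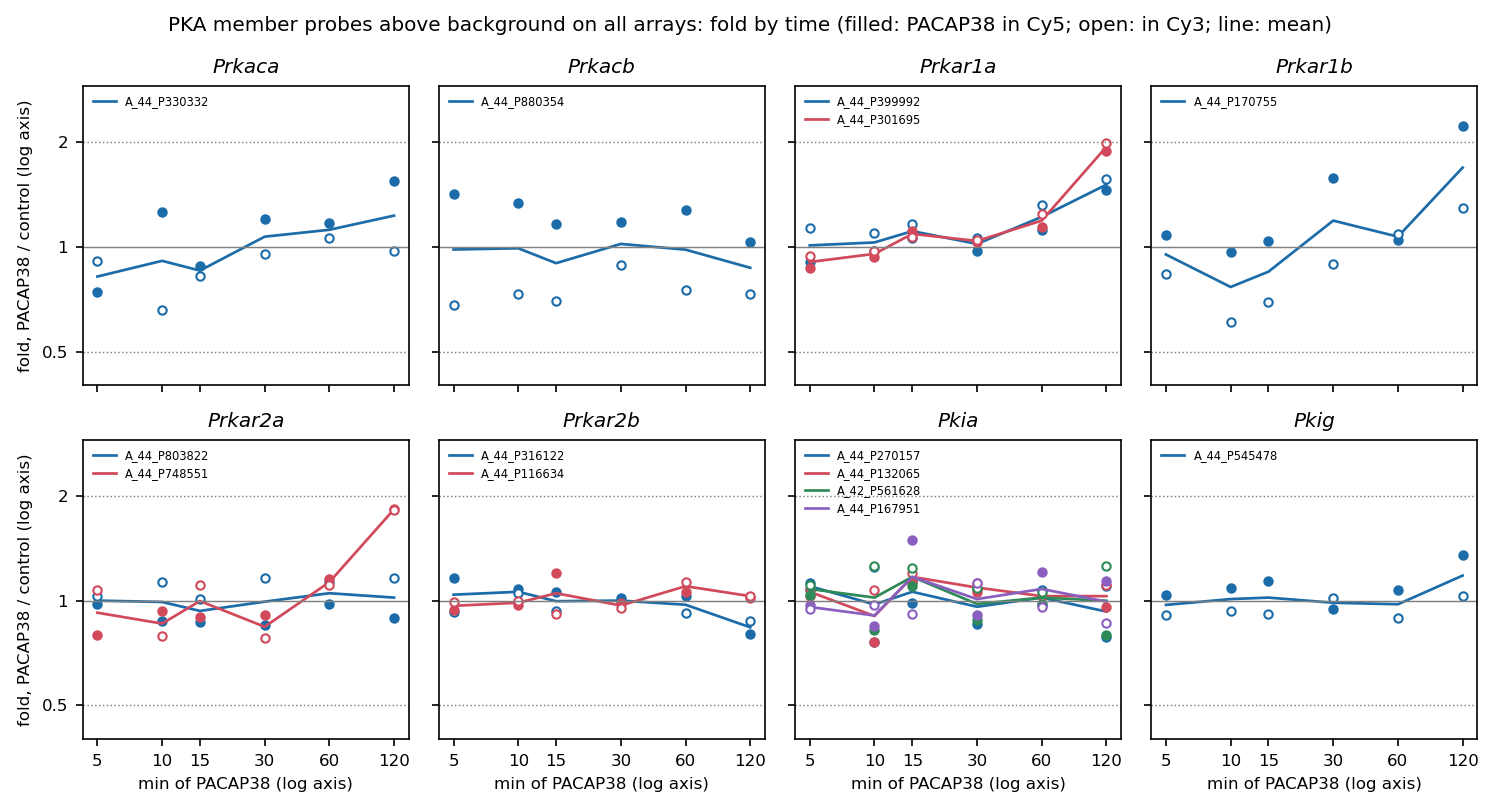
Fold of PACAP38 over control against time, both axes logarithmic, for the 14 member probes well above background on all arrays, 1 panel a gene. Filled points are arrays with PACAP38 in Cy5, open points those with it in Cy3, lines their geometric mean and dotted lines 0.5-fold and 2-fold. The type I probes and one Prkar2a probe leave 1 at 120 min, and the Prkacb points stay split by dye at every time.

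Under the 2-fold rule, by which both arrays must reach 2-fold or fall to 0.5-fold the same way with spot p-values under 0.01, 0 of the 21 member probes were called at any time. Of all probes, in order of time, 0%, 0.0659%, 0.117%, 0.351%, 1.25% and 3.48% were called. With a fold of 1.5 in place of 2, 0 member probes were called at 5 to 60 min, where 0.00732%, 0.100%, 0.249%, 0.607% and 2.52% of all probes were called in turn. At 120 min 2 member probes were called higher, Prkar1a A_44_P301695 and Prkar2a A_44_P748551, against 3.03% of all probes, and 0 lower, against 3.85%. Among the 15720 probes with both RNAs well above background on both arrays, 6.39% were called higher at 120 min by the 1.5-fold rule, and 2 of the 14 such member probes. A count of 2 at such a share is not a result about the members as a set.

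By role, and with the processed signals, the median fold at 120 min was 1.69 for the 3 type I probes, 1.02 for the 4 type II probes with a range of 0.838 to 1.83, and 0.999 for the 5 inhibitor probes with a range of 0.930 to 1.18. The 2 catalytic probes stood at 0.871 and 1.23. Over all 15720 probes measured at 120 min the median log2 ratio was -0.022, and 95% of them lay between 0.432-fold and 2.67-fold, a range that holds all 14 member probes. The median log2 ratio of the 14 was 0.042, and 9 of them were above 1-fold, while 47.7% of all measured probes were. These are descriptions of the probes, several of which read the same transcript.

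**Figure D3:**
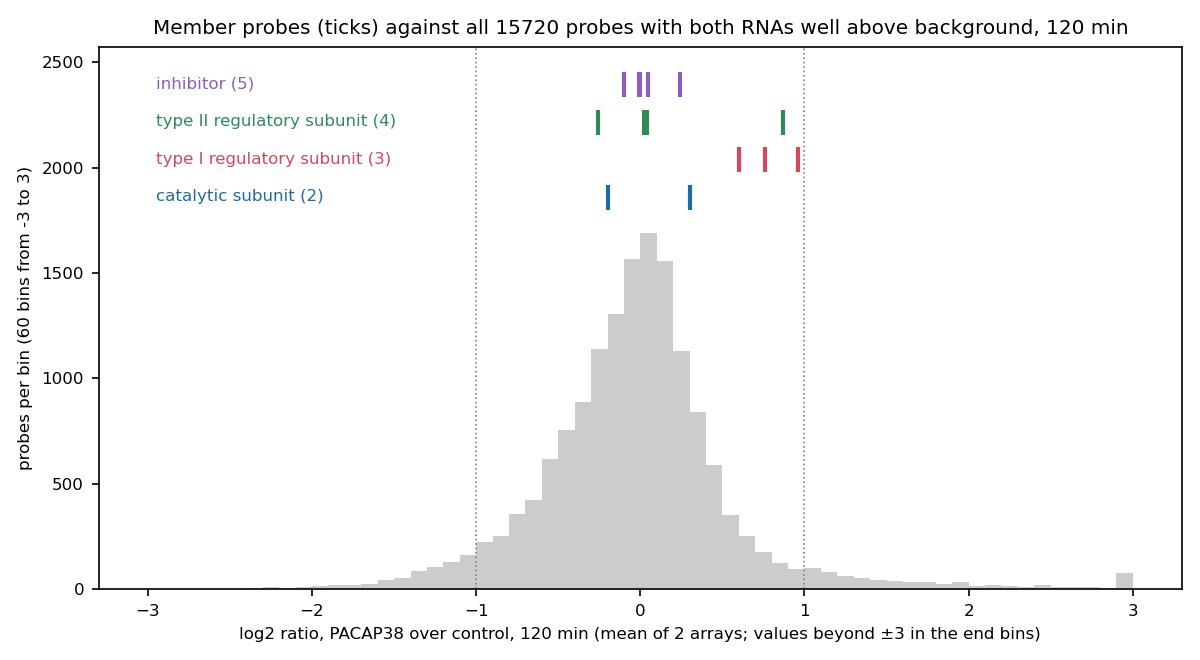
Histogram of the log2 ratio of PACAP38 over control at 120 min (horizontal axis; probes per bin on the vertical axis) for the 15720 probes with both RNAs well above background, with the 14 member probes as coloured ticks by role and dotted lines at 2-fold and 0.5-fold. The 3 type I ticks, at log2 ratios from 0.60 to 0.96, lie to the right of the centre, at -0.022, and inside the 2-fold line.

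The course over time was tested for each probe by a slope of the log2 ratio on log2 time over the 6 time points (limma, Benjamini-Hochberg adjustment over 20264 probes). It asks whether the ratio of PACAP38 to control moved with time, with the time points as the replicates. One of the 17 member probes tested was called: the ratio of Prkar1a A_44_P301695 rose by 0.20 ± 0.047 (SE) on the log2 scale per doubling of time (limma adjusted p = 0.0446). Over all probes 3.41% were called as rising and 3.84% as falling, and 6 of the 17 member probes had an unadjusted p below 0.05, against 6297 of 20264 overall. Prkar1a A_44_P399992 had 0.11 ± 0.030 (limma adjusted p = 0.0559), Prkaca 0.13 ± 0.035 (limma adjusted p = 0.0591) and Prkar1b 0.19 ± 0.061 (limma adjusted p = 0.0832). Prkar2a A_44_P748551 had 0.19 ± 0.065 (limma adjusted p = 0.0991) and Prkar2b A_44_P316122 -0.061 ± 0.024 (limma adjusted p = 0.139). The other 11 had adjusted p-values of at least 0.323. With normexp and loess, and then with normexp and median centring, the slope was 0.046 and 0.023 for Prkaca, 0.048 and 0.034 for Prkar1b, and 0.076 and 0.041 for Prkar2a A_44_P748551. In the same order it was 0.18 and 0.11 for Prkar1a A_44_P301695, 0.11 and 0.041 for A_44_P399992, and -0.077 and -0.15 for Prkar2b A_44_P316122.

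The call on Prkar1a A_44_P301695 held at 6 of 16 alternative settings. The limma adjusted p-values ran from 5.48e-04 with time in minutes to 0.880 with the slide as a block. The 6 include the deposited table, whose ratios are those of the main setting, so it is no separate check. With the slide as a block 0 of 20259 probes were called, and the slope of this probe was 0.24 ± 0.16 (SE). Without 120 min its slope was 0.10 (limma adjusted p = 0.162), that of Prkar1a A_44_P399992 0.060, that of Prkar1b 0.11, that of Prkar2a A_44_P748551 0.062 and that of Prkar2b A_44_P316122 -0.029. Each slide holds 2 neighbouring time points, so the change within a slide can be read apart from any difference between slides. From 60 to 120 min, on 1 slide, the log2 ratio of this probe went up by 0.70, that of Prkar1b by 0.66, that of Prkar2a A_44_P748551 by 0.69 and that of Prkar1a A_44_P399992 by 0.31, with a median over all probes of -0.0059. From 15 to 30 min, on another slide, the same differences were -0.071, 0.49, -0.25 and -0.13. From 5 to 10 min they were 0.078, -0.31, -0.10 and 0.033.

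The mean of the log2 ratio over the whole course was tested with the same tool. Of all 20264 probes 0% were called (limma, adjusted p), with 1970 at an unadjusted p below 0.05, 1 of them a member, Prkar1a A_44_P399992, at 0.19 ± 0.078 (SE; limma adjusted p = 0.506).

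How far the 2 arrays of a time point agreed sets what these values can show. Over all probes with both RNAs well above background, the correlation across probes between the 2 arrays was, in order of time, -0.366, -0.230, 0.271, 0.303, 0.698 and 0.832. Probes share the labelling of an array and are not replicates. Of the member probes measured, 14 at each time but 15 at 60 min, 7, 8, 9, 10, 8 and 7 had arrays on opposite sides of 1, in order of time. Of all probes so measured, 64.1%, 63.9%, 46.8%, 61.7%, 38.9% and 25.9% did. The 3 Prkar1a and Prkar1b probes and Prkar2a A_44_P748551 were not among the 7 at 120 min.

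**Figure D4:**
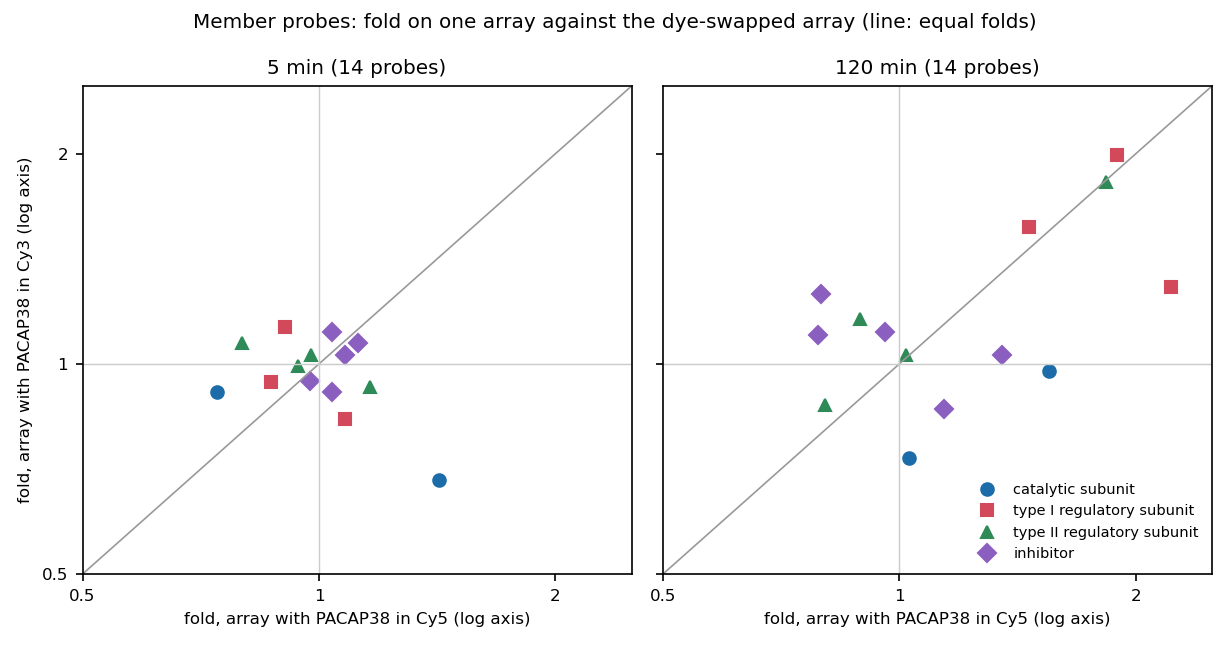
Fold of each measured member probe on the array with PACAP38 in Cy5 (horizontal) against the array with PACAP38 in Cy3 (vertical), log axes, at 5 and 120 min, by role, with a line for equal folds. At 5 min the points scatter round 1 with Prkacb at 1.42 and 0.681. At 120 min both Prkar1a probes and Prkar2a A_44_P748551 lie near the line above 1, and Prkar1b lies off it at 2.22 and 1.29.

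The genes whose courses were most like those of the 2 probes called by the 1.5-fold rule were found by the root mean square difference of the mean log2 ratios over the 6 time points, among 15880 probes bright enough throughout. These were chosen after the values of the members were seen, since the naming rule asked for a 2-fold call, and probes with a locus name in place of a symbol were passed over. Nearest to Prkar1a A_44_P301695 were Ckb, the brain creatine kinase, at a difference of 0.071, Maged1 at 0.077 and Spsb2 at 0.078. Nearest to Prkar2a A_44_P748551 were Zfyve27, which encodes the neurite protein protrudin, at 0.093, Por, the cytochrome P450 reductase, at 0.098 and Fndc3a at 0.10.

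Around the members, a list of 30 other genes of the pathway was read, the related kinase Prkx, the inhibitor Pkib, the ligase Pja2, which marks regulatory subunits for degradation, 15 anchors named Akap and 12 other anchors. All 30 were on the array, with 58 probes, of which 31 had both RNAs well above background on both arrays at 120 min. By the 2-fold rule 2 of the 58 probes were called higher and 3 lower at any time, all 5 of them at 120 min, where 3.48% of all probes were called in either direction. Both higher ones were of Ezr, encoding ezrin, which links actin to the membrane and binds PKA: A_42_P809953 stood at 3.04-fold and 3.17-fold at 120 min and was called at 60 min too, and A_43_P15737 at 4.15-fold and 2.78-fold, with the control bright on 1 of 2 arrays. The lower ones, all at 120 min, were Akap1, the anchor of the outer mitochondrial membrane, at 0.438-fold and 0.393-fold (A_44_P561324), Akap5, the postsynaptic anchor, at 0.248-fold and 0.154-fold, and Akap17b A_44_P445712 at 0.446-fold and 0.302-fold. At Akap5 and at this Akap17b probe the RNA with PACAP38 was well above background on 1 of the 2 arrays. The second Akap1 probe, A_43_P12890, was dim and split between arrays, at 2.76-fold and 0.194-fold.

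By the 1.5-fold rule 2 pathway probes were called higher and 7 lower at 120 min, against 3.03% and 3.85% of all probes. The median log2 ratio of the 31 measured ones was -0.19, beside -0.022 over all measured probes and 0.042 over the members. Of the 39 pathway probes in the slope test 3 were called as rising and 3 as falling by limma, against 3.41% and 3.84% of all probes tested. The rising ones were both Ezr probes, at 0.37 per doubling of time each, and Nbea A_43_P18417. The call on Ezr A_42_P809953 held at 10 of 16 alternative settings and that on A_43_P15737 at 6 of 15. The slope of the latter was 0.060 with normexp and loess and 0.059 with median centring. This probe was well above background on 2 arrays in the control RNA and on 5 with PACAP38. Since a probe bright in 1 RNA could enter the test, its call adds no support to that of the other Ezr probe. The probes called as falling were Pja2 A_44_P109791, Akap8l A_44_P1034107 and Acbd3 A_44_P533760. These 3 genes and Nbea were named after their values were seen. At 120 min Pja2 stood at 0.632-fold at that probe, Akap8l at 0.645-fold, Acbd3 at 0.453-fold and Nbea at 1.12-fold. The folds of the Nbea probe at 5, 10 and 60 min were 0.688, 0.734 and 1.21, and its slope of 0.18 was 0.079 with normexp and loess and 0.043 with median centring. A second probe of Pja2, A_44_P1009892, stood at 0.663-fold (slope limma adjusted p = 0.0823). The second probes of Akap8l and Nbea, A_44_P523198 and A_44_P1020311, stood at 0.986-fold (slope limma adjusted p = 0.842) and 1.11-fold (slope limma adjusted p = 0.955), so these slopes were called at 1 probe of each gene. Over 16 alternative settings the calls on the first probes of Pja2, Akap8l, Nbea and Acbd3 held at 11, 8, 6 and 9, and with the slide as a block the slope of Akap8l turned to 0.0022. Each of these counts, and those for Ezr, includes the deposited table, which repeats the ratios of the main setting.

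Promoters of 7 of the 9 members were read from RefSeq windows of 300 bases on GRCr8, 250 before and 50 after a start, in which Prkar2a and Pkia had none. The full cyclic AMP response element TGACGTCA was in 0 of the 10 windows of these genes and in 1.83% of all 33469 windows. The core TGACG, on either strand and contained in the full element, was in 3 of the 10 and in 21.2% of all windows: once in Prkacb, at 2 places in Prkaca and once in 1 of 3 windows of Pkig. The windows of Prkar1a and Prkar1b held neither.

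The treatment was checked at the early response genes Fos and Nr4a1: at 120 min Fos stood at 21.3-fold and 15.6-fold on the 2 arrays and Nr4a1 at 16.6-fold and 9.62-fold. All 7 of the 8 PC12 markers with probes on the array, Th, Dbh, Chga, Chgb, Slc18a1, Gata2 and Ret, were well above background in the control RNA on all 12 arrays. Of markers of other cells, 4 of 5 for fibroblasts, 2 of 4 for macrophages, 1 of 4 for glia and 0 of 3 for endothelium were so on at least 1 array, and 0 probes of these markers were called by the 2-fold rule at 120 min. By the 1.5-fold rule, which called 2 member probes higher at 120 min, the PC12 markers Th and Dbh were called higher, at 1.81-fold and 2.36-fold, and so was the macrophage marker Cd68, at 1.97-fold and 1.91-fold on the 2 arrays. The fibroblast marker Pdgfra was called lower, at 0.457-fold as the mean of both arrays. Summed over the brightest probe of each gene, as signal over the 75th percentile of the channel, the 4 macrophage markers ranged from 0.606 to 0.745 over the control pools and from 0.683 to 1.24 over those with PACAP38. The 5 fibroblast markers ranged from 0.981 to 1.08 and from 0.811 to 1.16, the 4 glial ones from 0.406 to 0.487 and from 0.269 to 0.469, and the 3 endothelial ones from 0.0661 to 0.113 and from 0.0753 to 0.112. The 7 PC12 markers ranged from 482 to 594 and from 539 to 837. At 120 min control and PACAP38 stood at 0.729 and 1.24 for macrophages, 1.08 and 0.811 for fibroblasts, 0.480 and 0.269 for glia, 0.0741 and 0.0958 for endothelium and 578 and 837 for PC12. The part of these markers in the members' values was not tested. On each array the control channel was well above background at 38.4 to 49.6% of spots, which limits which members can be read.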

How the data were processed

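PC12 RNA pools of PACAP38 and control at 6 time points were hybridized to 12 Agilent 4x44K arrays. The authors extracted the scans with Agilent's Feature Extraction (12.0.3.1 per the file headers, 11.0.1.1 per the labels, and a version other than these per the paper's methods). The deposited intensity values had their background subtracted, were detrended and passed a LOWESS dye normalization, the deposited log10 values are those of Cy5 over Cy3, and the deposited p-value of a spot comes from the software's error model.

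Processed intensities gave the ratio of PACAP38 to control, turned by dye. Control spots (1639) and outlier spots (197 to 267) per array were left out, spots of a probe were averaged on the log2 scale, and the mean of both arrays is the value of a time point. Slopes on log2 time and means were fitted with limma 3.58.1 in R 4.3.3 (lmFit, eBayes with a trend on signal), adjusted by Benjamini-Hochberg at 0.05, for probes that were bright (well above background) in 1 channel or both on each array of 1 or more time points, and were tested on simulated data with 200 changed probes. Named genes are all 9 members at every probe, pathway genes called by the 2-fold rule and those with the highest and lowest ratio at 120 min, and the 3 nearest courses. The members and lists were chosen with earlier results of these data known. Alternatives were other fold and p limits, 1 dye orientation, other filters, normexp corrections, the deposited table, time in minutes, slide as a block, leaving out a time point, other scaling of levels and means of probes. Tables and plots used pandas 2.3.3, numpy 2.4.6 and matplotlib 3.10.9 under Python 3.11.15. The proteome data and protein sequences were not used here.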

Additional observations from a re-analysis of the deposited data

Results flagged for a closer look

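Among the control levels of the 21 member probes over the 6 pools, 2 had 1 pool far from the others, where about 1 group in 20 is marked by chance. At Prkar2a A_44_P748551 the control pool of 5 min stood at 0.19, above the next at -0.42 and the lowest at -0.76. At Akap12 A_44_P183784, which was not well above background on any array, the control pool of 60 min stood at -5.58, below the next at -4.96. At Prkar1a A_44_P301695 the ratio of PACAP38 to control had a slope of 0.20 per doubling of time on the log2 scale (limma adjusted p = 0.0446). This call held at 6 of 16 alternative settings, among them the deposited table, which repeats the main ratios. It was lost, among others, without 120 min (limma adjusted p = 0.162) and with the slide as a block (limma adjusted p = 0.880). With the slide as a block the slope was 0.24 ± 0.16 (SE), and 0 of 20259 probes were called.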

How the results depend on the processing

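Under the 8 alternatives, of which the deposited table holds the ratios of the main setting, no member probe was called by the 2-fold rule at 5 to 30 min. With PACAP38 in Cy5 alone 1 was called at 60 min (Prkar2a A_44_P493802) and 1 at 120 min (Prkar1b), and the 1.5-fold limit called 2 at 120 min. The number of measured member probes with a mean fold of at least 1.5 at 120 min was 4, but 1 with normexp and loess (Prkar1a A_44_P301695) and 0 with normexp and median centring. For the slope, 1469 of 20264 probes were called, with 834 for PACAP38 in Cy3 alone, 425 with no filter, 3163 with normexp and median centring, 0 with the slide as a block (735 at an unadjusted p below 0.05), 6277 with time in minutes, 147 with no trend in the variance (an alternative added after seeing the data) and 22 to 2071 with 1 time point left out. Of the members 1 was called, with 2 for PACAP38 in Cy5 alone, for both RNAs bright on all 12 arrays and for normexp and loess, 6 with time in minutes, and 0 for PACAP38 in Cy3 alone, no filter, normexp and median centring, slide as a block and no trend. Leaving out 1 time point called 0 to 2 members: 0 without 10, 15, 60 or 120 min, 2 without 30 min and 1 without 5 min, which was Prkar1b and not Prkar1a. For the mean over the course 0 probes were called, with 2351 for PACAP38 in Cy5 alone and 4013 for Cy3 alone (3 and 7 members), where a dye effect does not cancel, and 0 to 21 with 1 time point left out. The median SD of control levels over the 14 bright probes was 0.19, and 0.29 with no scaling. With the brightest probe for each gene, 0 genes reached 1.5-fold at 120 min on each array, and 1 did, Prkar1a, with the mean of its probes. None of the alternatives turned the direction of the 6 member slopes printed with their errors or of the pathway slopes of Ezr, Pja2, Nbea and Acbd3, whereas that of Akap8l A_44_P1034107 went from -0.19 to 0.0022 with the slide as a block. The causes of these changes were not tested where none is named.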
